A study of Mus musculus with 6 samples.

Results

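The 10 genes described here are regulators and effectors of the epithelial-to-mesenchymal transition, measured in mouse melanomas: the transcription factors Snai1, Snai2, Twist1, Zeb1 and Zeb2, the cadherins Cdh1 and Cdh2, the intermediate filament gene Vim, the fibronectin gene Fn1 and the receptor tyrosine kinase gene Axl. They were chosen by name, and all 10 were found among the 20938 genes of the deposited table. RNA of whole tumours had been sequenced to learn how YKL-40, a secreted chitinase-like protein, affects melanoma growth. There were 3 tumours labelled YKL-40 overexpressing and 3 control tumours. Every tumour came from B16F10 cells, a melanoma line derived from the C57BL/6 strain, given under the skin of the hind leg to male C57BL/6 mice at 6 weeks of age and collected on day 19. The genotype is given as WT for all 6 samples. The vector of the control cells, the species of the overexpressed sequence and whether one or several clones were injected are not given in the sources used here. The samples are whole tumours, so RNA of host cells is included, and fewer cells of a type cannot be told apart from less RNA per cell.

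In the epithelial-to-mesenchymal transition, cells give up E-cadherin junctions and take on a motile, spindle-shaped form. Factors of the SNAIL, TWIST and ZEB families drive it, and SNAIL and ZEB proteins bind E-box sequences in the E-cadherin promoter and repress it. Melanocytes arise from the neural crest, which has itself passed through such a transition, so melanoma cells express vimentin and often N-cadherin without any further change. In human melanoma, SNAI2 and ZEB2 belong to the differentiated, pigmented state, and ZEB1 and TWIST1 to a dedifferentiated, invasive one. Fibroblasts, macrophages and endothelial cells of the tumour bed also express several of these genes.

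Values are FPKM, fragments scaled to transcript length and to library depth, so levels of different genes can be set side by side. The columns summed to between 468605 and 490955 in the YKL-40-labelled libraries and between 469464 and 479586 in the controls. Depths relative to the first control, estimated from the smallest values, ran from 0.947 to 1.20 in the YKL-40-labelled libraries and from 1 to 1.34 in the controls. Of the 10 melanocyte markers listed, all 10 reached the filter on low values, with summed levels of 8684 to 10843 FPKM in the YKL-40-labelled libraries and 8682 to 10162 FPKM in the controls. Chil1, the mouse gene of YKL-40, was listed at 0 in all 3 YKL-40-labelled libraries and at 0.0644, 0 and 0.0242 FPKM in the controls. The mouse gene therefore gave no check of the labels, and every direction below rests on the labels.

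The genes fell into high and low levels. With 10 FPKM as the limit for a mean over the 6 libraries, 5 genes were high, in the order Vim, Fn1, Zeb2, Axl and Cdh2, with means of 1779, 162, 105, 15.4 and 14.9 FPKM. The low genes were Zeb1, Snai2 and Snai1, with means of 1.74, 1.73 and 1.15 FPKM. Twist1 at 0.404 and Cdh1 at 0.353 FPKM lay below the 1 FPKM that a gene needed to be tested. Cdh2 was the high gene nearest to the limit and Zeb1 the nearest below it. No library of Vim reached down to the Fn1 range, none of Zeb2 to the Axl range and none of Cdh2 to the Zeb1 range. The other neighbours in the order had overlapping ranges, and Axl was above Cdh2 in only 2 of 6 libraries and Zeb1 above Snai2 in only 3 of 6.

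**Figure D1:**
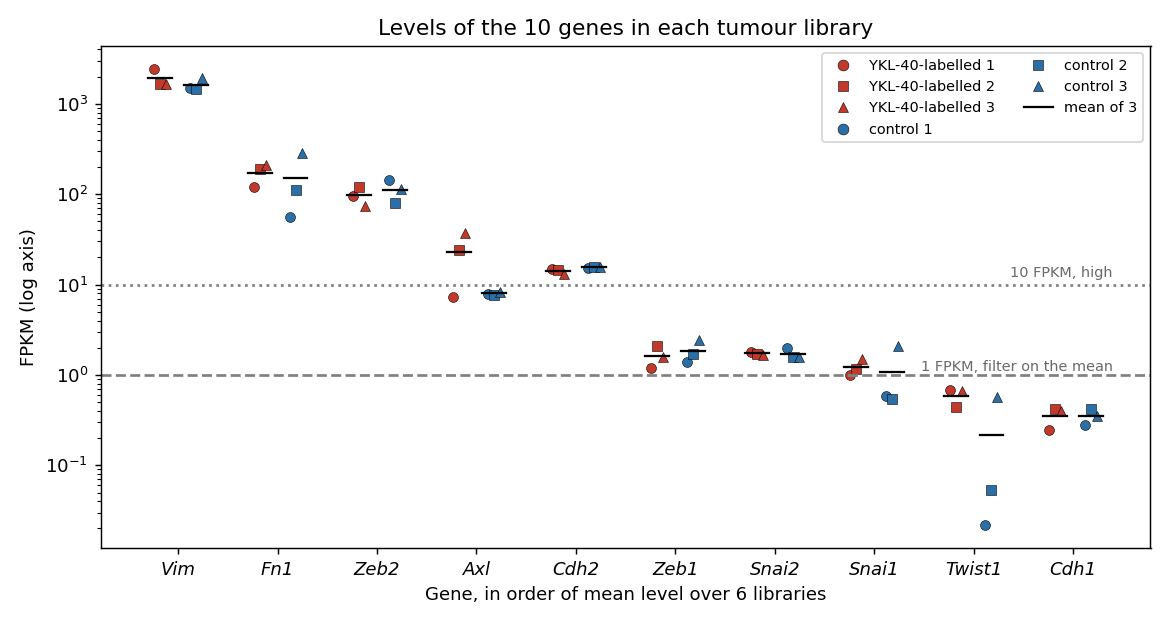
Each point is 1 tumour library, on a log axis in FPKM, with YKL-40-labelled libraries in red and controls in blue, and a bar at the mean of the 3 libraries. Vim, Fn1, Zeb2, Axl and Cdh2 have means above 10 FPKM, while Twist1 and Cdh1 have means below 1 FPKM.

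Between the groups, none of the 8 genes that could be tested passed. A change below is the mean of the YKL-40-labelled libraries minus that of the controls, in log2(FPKM + 1), tested with limma over the 11241 genes whose mean reached 1 FPKM and adjusted by Benjamini and Hochberg. Of the 8 genes tested, 0 passed an adjusted p of 0.05, with adjusted p from 0.275 to 0.979, and 0.436% of all tested genes passed. At an unadjusted p under 0.05 there was 1 of 8, Axl, against 18.0% of all tested genes, and it was higher, as 8.71% of all were, while 9.24% were lower. The groups of 1 of 8, Cdh2, did not overlap, against 24.4% of all tested genes, and it was lower, as 14.2% of all were, while 10.3% were higher. The median change of the 8 was 0.09, and that of all tested genes was -0.04. Whether the 3 samples of each group were separate animals is not stated, and the p-values reflect the spread among these 6 samples alone.

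**Figure D2:**
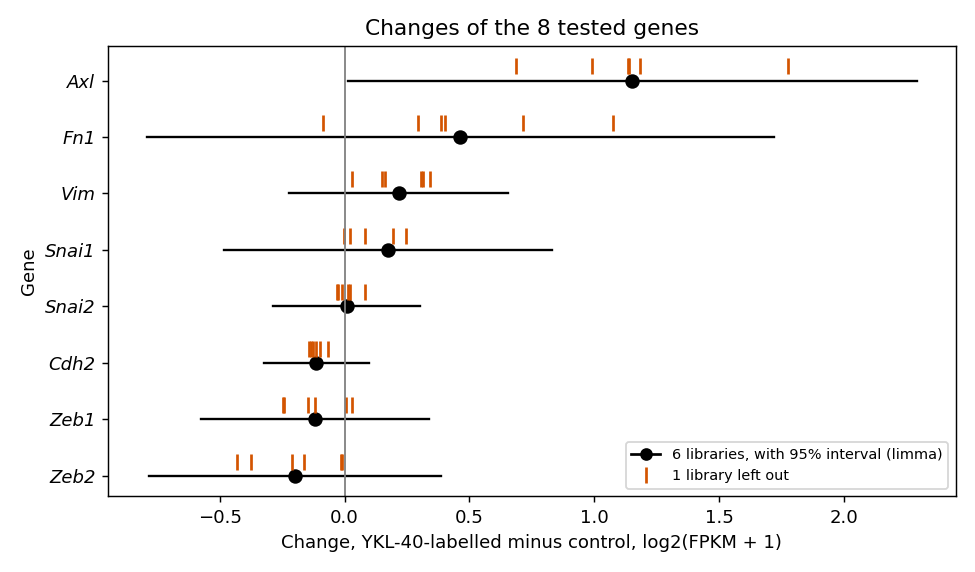
Black points are the changes in log2(FPKM + 1) of the 8 tested genes, YKL-40-labelled over control, with 95% intervals from limma, and orange ticks are the changes with 1 library left out. The interval of Axl starts at 0.01, those of the other 7 genes span 0, and the ticks of Fn1 run from -0.09 to 1.08.

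Vim encodes vimentin, the intermediate filament of mesenchymal cells, and was the most abundant of the 10 genes, ranking 15 among all genes of the table. It had 2446, 1651 and 1666 FPKM in the YKL-40-labelled libraries, against 1502, 1476 and 1933 FPKM in the controls. The ranges overlapped, with the first YKL-40-labelled library highest of all and the third control above the other two YKL-40-labelled libraries. The means were 1921 ± 455 and 1637 ± 257 FPKM (SD, n = 3 each, as for all means below), a change of 0.22 with a 95% interval of -0.22 to 0.66 and an adjusted p of 0.580 in limma. Without the first YKL-40-labelled library the change was 0.03. The 250 bases before its annotated start, on chr2:13574061-13574310 (GRCm38.p6, plus strand, RefSeq), are shown because this is the promoter of the gene at the top of the range. Capitals mark TATAAA, the core of a TATA box, whose first base lies 32 bases before the start.
Vim: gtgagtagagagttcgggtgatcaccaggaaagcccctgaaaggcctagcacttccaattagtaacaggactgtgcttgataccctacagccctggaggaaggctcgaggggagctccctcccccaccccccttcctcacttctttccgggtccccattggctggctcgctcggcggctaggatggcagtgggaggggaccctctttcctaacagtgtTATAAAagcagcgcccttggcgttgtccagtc
TATAAA, read on both strands, was found in 12.4% of the 32851 promoter windows of this length. Neither CACCTG, the E-box that SNAIL and ZEB factors bind, nor GGGCGG, a GC box, was found in the window of Vim.

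Fn1 encodes fibronectin, a matrix glycoprotein made by fibroblasts and other mesenchymal cells, and lies on chromosome 1 from 71585473 to 71653280. It had 119, 188 and 213 FPKM in the YKL-40-labelled libraries, against 56.3, 112 and 286 FPKM in the controls. All 3 YKL-40-labelled libraries lay between the second and the third control. The means were 173 ± 48.9 and 151 ± 120 FPKM, and the change of 0.46 had an interval of -0.79 to 1.72 (adjusted p = 0.687 in limma). A single control set its direction, since the change was -0.09 without control 1 and 1.08 without control 3, with an adjusted p of 0.955 and 0.175 in limma. The spread of Fn1 within groups was the widest of the 8 tested genes, with an SD of 0.88 on the log2 scale, where the median tested gene had 0.15. Summed fibroblast markers moved with it in the controls, at 369, 257 and 451 FPKM in the YKL-40-labelled libraries and 50.4, 114 and 289 FPKM in the controls. Within the YKL-40-labelled group they did not have its order, since their sum was lowest in the second library and Fn1 in the first. The first YKL-40-labelled library also had a higher fibroblast sum than the third control but a lower Fn1. Of the 10 fibroblast markers 9 were tested and 0 passed in limma. At an unadjusted p under 0.05, 8 were higher, where 8.71% of all tested genes were higher. Their part in the level of Fn1 was not tested.

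Axl encodes a receptor tyrosine kinase of the TAM family, which binds the ligand Gas6 and is expressed by invasive tumour cells as well as by macrophages and dendritic cells. It had 7.38, 23.9 and 37.1 FPKM in the YKL-40-labelled libraries, against 7.82, 7.75 and 8.37 FPKM in the controls. The controls were nearly equal, the second and the third YKL-40-labelled libraries stood far above them, and the first lay below every control. The groups therefore overlapped, and the means were 22.8 ± 14.9 and 7.98 ± 0.338 FPKM. The change of 1.15 was the largest of the 8, with an interval of 0.01 to 2.29, an unadjusted p of 0.0482 and an adjusted p of 0.275 in limma, and it did not pass. It was 1.78 without the first YKL-40-labelled library and 0.69 without the third, with an adjusted p of 0.0944 and 0.527 in limma. Array quality weights gave the first YKL-40-labelled library a weight of 0.476 and the third 2.33. With them Axl passed with a change of 1.69 and an adjusted p of 0.0350 in limma. In that setting 1111 of the 11241 tested genes passed, against 49 without weights. Summed macrophage markers were 206, 259 and 342 FPKM in the YKL-40-labelled libraries and 58.3, 98.8 and 161 FPKM in the controls, so they had the order of Axl within the YKL-40-labelled group. Of the 9 macrophage markers tested, 0 passed in limma and none was at 0 in any library. At an unadjusted p under 0.05, 8 were higher, where 8.71% of all tested genes were higher. In the first YKL-40-labelled library the macrophage sum was above every control while Axl was not. Across the controls the macrophage sum ran from 58.3 to 161 FPKM, while Axl stayed between 7.75 and 8.37 FPKM. The part of macrophage RNA in the level of Axl was not tested.

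A promoter window of Axl, on chr7:25788734-25788983 (GRCm38.p6, minus strand), is shown because this gene had the largest change of the 8. Its annotated start lies downstream of the outermost start of Axl, at 25788924, so most of the window is inside the gene. Capitals mark GGGCGG, 10 bases before the start used for the window.
Axl: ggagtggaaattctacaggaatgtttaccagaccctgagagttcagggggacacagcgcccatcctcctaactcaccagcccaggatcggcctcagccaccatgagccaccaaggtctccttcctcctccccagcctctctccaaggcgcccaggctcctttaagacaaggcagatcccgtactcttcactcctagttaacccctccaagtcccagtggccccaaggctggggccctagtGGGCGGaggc
GGGCGG was found on either strand in 32.7% of all windows. The other members of the Axl system did not pass in limma. Gas6, a ligand, had 7.05, 11.3 and 10.6 FPKM in the YKL-40-labelled libraries and 3.12, 5.24 and 9.45 FPKM in the controls, a change of 0.70 with an adjusted p of 0.321. The related receptor Tyro3 had 8.81, 14.6 and 9.42 FPKM in the YKL-40-labelled libraries and 14.3, 14.0 and 12.9 FPKM in the controls, a change of -0.33. The ligand Pros1 had 18.1 ± 2.93 and 15.7 ± 1.43 FPKM. In the first YKL-40-labelled library Gas6 was also the lowest of its group, but there it exceeded 2 of the controls.

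Zeb2 and Zeb1 encode zinc finger and homeodomain repressors that bind the same E-boxes. Zeb2 had 96.8, 121 and 73.3 FPKM in the YKL-40-labelled libraries, against 143, 79.3 and 115 FPKM in the controls. Zeb1 had 1.18, 2.09 and 1.59 FPKM in the YKL-40-labelled libraries, against 1.38, 1.71 and 2.47 FPKM in the controls. The 2 groups overlapped for both genes, and Zeb2 was between 46.0 and 103 times as abundant as Zeb1 in every library. The changes were -0.20 (interval -0.78 to 0.38, adjusted p = 0.710 in limma) for Zeb2 and -0.12 (-0.58 to 0.34, adjusted p = 0.787) for Zeb1. The direction for Zeb1 turned without the first YKL-40-labelled library (0.0058) and without the third control (0.03). The log2 ratio of Zeb2 to Zeb1, with 1 FPKM added to each, was 5.21 ± 0.33 in the YKL-40-labelled libraries and 5.29 ± 0.55 in the controls, a difference of -0.08 (exact two-sided permutation p = 0.8, in a design of 3 against 3 libraries that cannot go below 0.1). That difference was 0.11 without the third YKL-40-labelled library and 0.23 without the first control. In the annotation, exons of the antisense gene Zeb2os cover 653 bases, or 3.27%, of those of Zeb2, and the kit keeps no strand.

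Zeb1 had its lowest value in the first YKL-40-labelled library and its highest in the third control. Endothelial markers were also highest in the third control but lowest in the first, with a summed level of 58.9, 91.1 and 76.1 FPKM in the YKL-40-labelled libraries and 48.5, 67.9 and 103 FPKM in the controls. Cdh5, the cadherin of endothelial cells, had 3.33, 8.35 and 5.43 FPKM in the YKL-40-labelled libraries and 4.81, 5.91 and 10.6 FPKM in the controls. Over the 6 libraries Cdh5 was the tested gene most correlated with Zeb1 (Pearson r = 0.994), a pair chosen after its values were seen. With 6 points, 31 tested genes had an r above 0.95 with Zeb1. The part of endothelial cells in the level of Zeb1 was not tested.

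Snai1 and Snai2 encode the zinc finger repressors Snail and Slug. Snai1 had 1.01, 1.15 and 1.51 FPKM in the YKL-40-labelled libraries, against 0.589, 0.540 and 2.09 FPKM in the controls. All YKL-40-labelled libraries lay between the lower 2 controls and the third. The change was 0.17 with an interval of -0.48 to 0.83 (adjusted p = 0.786 in limma), and -0.0016 without the second control. Snai1 passed the filter on its mean only through the third control and could not be tested without it. Snai2 had 1.80, 1.72 and 1.68 FPKM in the YKL-40-labelled libraries, against 2.00, 1.59 and 1.57 FPKM in the controls. It was among the steadiest of the 10 genes, with a change of 0.0087 and an interval of -0.29 to 0.30 (adjusted p = 0.979 in limma). Its direction turned without the first YKL-40-labelled library, without the second control and without the third control, with values of -0.0089, -0.02 and -0.03.

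In human cells Snail is known to bind an E-box in its own promoter, so the window of Snai1 is shown, on chr2:167537945-167538194 (GRCm38.p6, plus strand), with the E-box CACCTG in capitals, 126 bases before the start.
Snai1: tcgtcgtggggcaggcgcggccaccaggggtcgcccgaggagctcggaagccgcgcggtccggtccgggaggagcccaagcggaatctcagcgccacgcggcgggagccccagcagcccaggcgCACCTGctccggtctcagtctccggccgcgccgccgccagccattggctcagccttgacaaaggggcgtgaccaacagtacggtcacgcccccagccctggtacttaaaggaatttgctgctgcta
CACCTG was found on either strand in 17.2% of all windows. Promoter windows were at hand for 5 of the 10 genes, Vim, Axl, Snai1, Zeb2 and Twist1, and Snai1 was the only one of these 5 with that E-box. These matches are letters in a window, and no binding was measured.

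Twist1 encodes a basic helix-loop-helix factor that binds E-boxes and is active in fibroblasts and in the neural crest. It had 0.677, 0.443 and 0.657 FPKM in the YKL-40-labelled libraries, against 0.0216, 0.0535 and 0.569 FPKM in the controls. The first 2 controls were near 0, and the third lay among the YKL-40-labelled libraries, so the groups overlapped. The means were 0.593 ± 0.130 and 0.215 ± 0.307 FPKM, a difference of 0.42 on the log2 scale (exact two-sided permutation p = 0.2). Tested without a filter, Twist1 had an adjusted p of 0.316 in limma. Fibroblast markers had their lowest sums in the same 2 controls, 50.4 and 114 FPKM, as given above beside Fn1. Twist2, the close relative of Twist1 in dermal fibroblasts, had 0.377, 0.165 and 0.343 FPKM in the YKL-40-labelled libraries and 0, 0.0109 and 0.108 FPKM in the controls. Prrx1, another factor of mesenchymal cells, had 4.25, 2.41 and 4.83 FPKM in the YKL-40-labelled libraries and 0.839, 2.15 and 3.07 FPKM in the controls, a change of 0.72 that did not pass (adjusted p = 0.298 in limma). Twist2 and Prrx1 were chosen after their values were seen. How far fibroblast RNA sets these values was not tested.

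**Figure D3:**
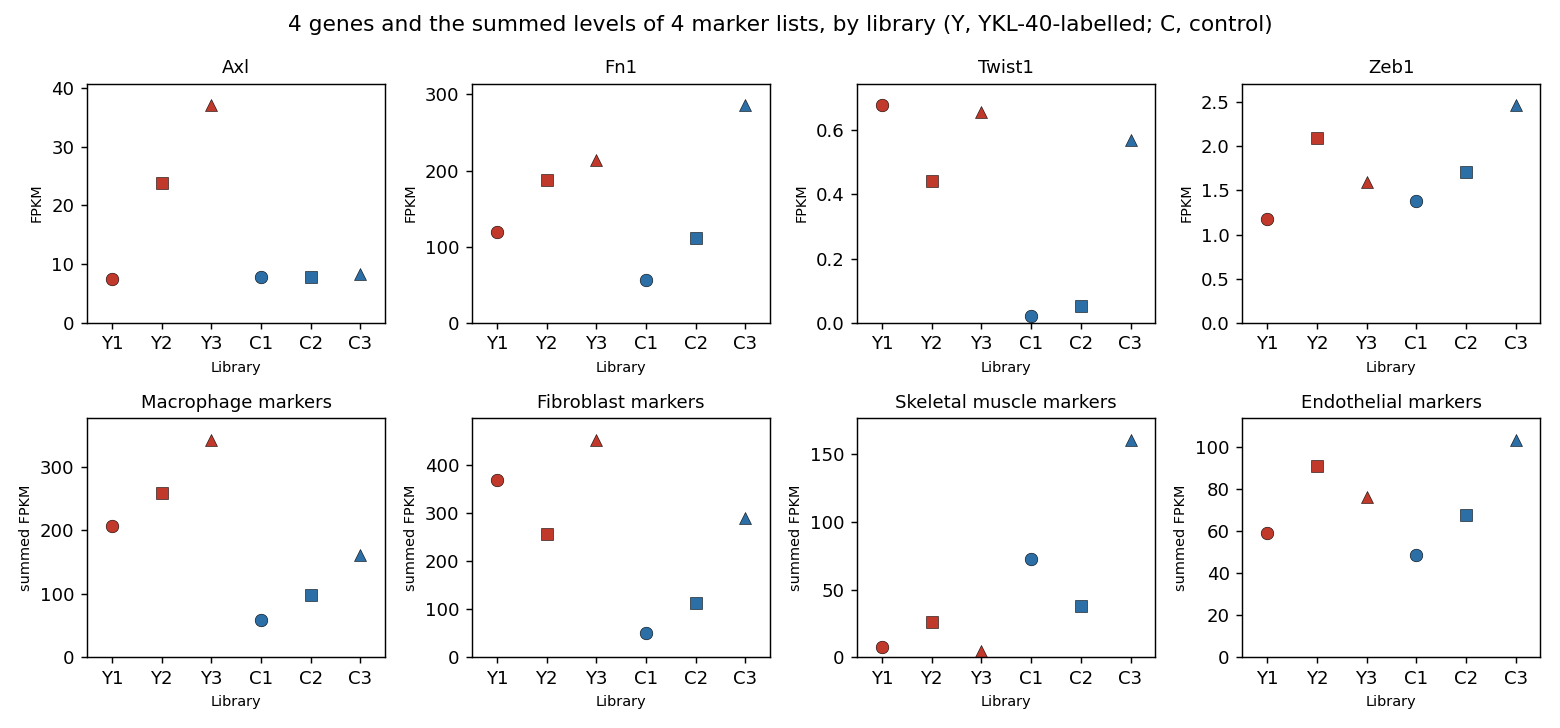
The upper row plots the FPKM of Axl, Fn1, Twist1 and Zeb1 in each library, and the lower row the summed FPKM of macrophage, fibroblast, skeletal muscle and endothelial markers, with YKL-40-labelled libraries in red (Y1 to Y3) and controls in blue (C1 to C3). Control 1 has the lowest Fn1, Twist1 and summed fibroblast marker values of the 6 libraries. Y1 has Axl at the control level while its macrophage marker sum exceeds that of every control.

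Cdh2 encodes N-cadherin, the adhesion molecule of neural crest and mesenchymal cells, and Cdh1 encodes E-cadherin, which joins epithelial cells and melanocytes to keratinocytes. Cdh2 had 14.9, 14.7 and 13.2 FPKM in the YKL-40-labelled libraries, against 15.2, 15.9 and 15.5 FPKM in the controls. Every YKL-40-labelled library was below every control, by a small amount. The means were 14.3 ± 0.890 and 15.5 ± 0.350 FPKM, a change of -0.11 with an interval of -0.32 to 0.10 (adjusted p = 0.545 in limma). Cdh2 had the smallest spread within groups of the 8 tested genes, with an SD of 0.06 on the log2 scale.

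Cdh1 had 0.246, 0.422 and 0.396 FPKM in the YKL-40-labelled libraries, against 0.278, 0.422 and 0.355 FPKM in the controls. The 2 groups covered the same range, with means of 0.355 ± 0.0953 and 0.352 ± 0.0719 FPKM (exact two-sided permutation p = 0.9). The low level of Cdh1 was thus found in all 6 libraries, and N-cadherin RNA was between 33.4 and 60.5 times as abundant. The log2 ratio of Cdh2 to Cdh1, with 1 FPKM added to each, was 3.50 ± 0.16 in the YKL-40-labelled libraries and 3.61 ± 0.05 in the controls, a difference of -0.12 (exact two-sided permutation p = 0.4). The summed level of 8 markers of keratinocytes and other epithelial cells was 0.345 to 0.858 FPKM in the YKL-40-labelled libraries and 0.224 to 0.570 FPKM in the controls, and 3 of the 8 were at 0 in every library. Their part in the level of Cdh1 was not tested.

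Around the 10 genes, 138 other genes of the transition were looked at in 11 lists, and 83 of them were tested. In limma 0 of the 83 passed, with a lowest adjusted p of 0.0881. At an unadjusted p under 0.05 the lists held 16 (19.3%), 11 of them higher and 5 lower, where all tested genes gave 18.0%. The groups of 14 (16.9%) did not overlap, 7 higher and 7 lower, where all tested genes gave 24.4%. Their median change was 0.05. Both shares, taken in either direction, lie near or below those of all tested genes. By direction, more of the 16 were higher than lower, whereas 8.71% of all tested genes were higher and 9.24% lower.

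**Figure D4:**
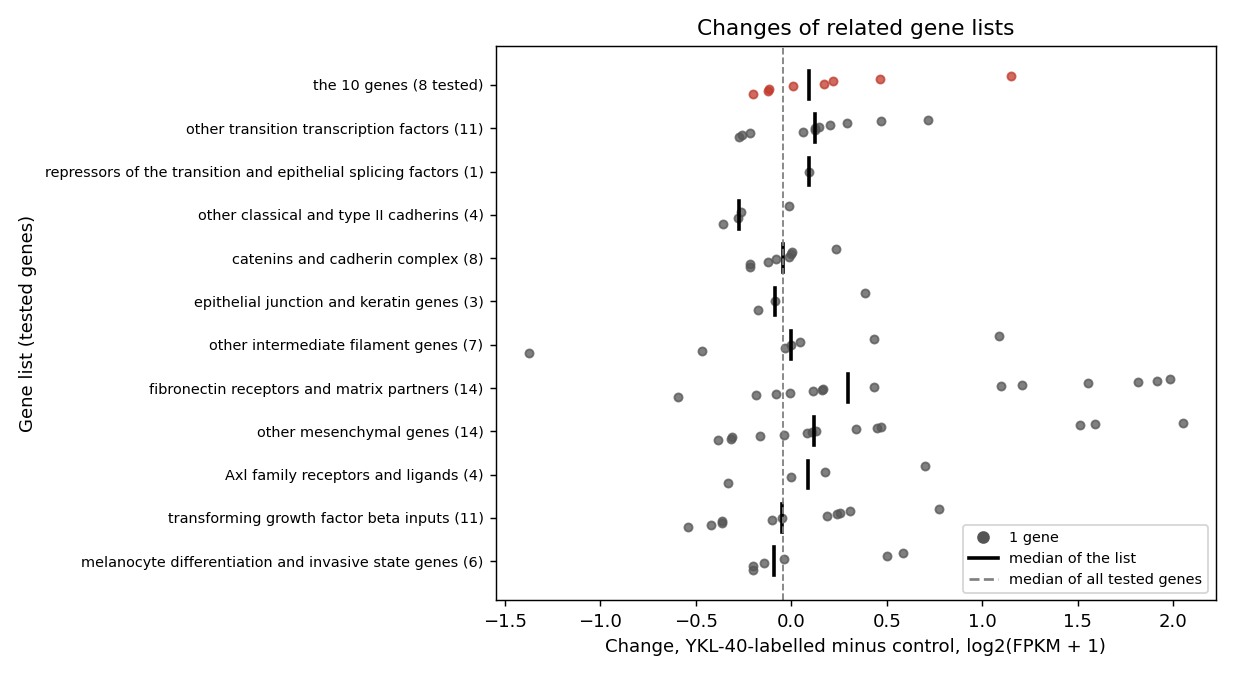
Each point is the change in log2(FPKM + 1) of 1 tested gene, YKL-40-labelled over control, in the 10 genes (red) and in the 11 related lists (grey), with the number tested in brackets, a bar at each median and a dashed line at the median of all tested genes, -0.04. Of the related genes Des is lowest at -1.37 and S100a4 highest at 2.05.

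Among the other transcription factors of the transition, 11 of 18 were tested and the median change was 0.13. At an unadjusted p under 0.05 in limma, 2 were higher, where 8.71% of all tested genes were higher. The most abundant were the E proteins Tcf3, with 34.1 ± 6.49 FPKM in the YKL-40-labelled libraries and 39.2 ± 1.39 FPKM in the controls, and Tcf4, with 22.0 ± 1.74 and 26.5 ± 2.93 FPKM. E proteins pair with Twist1 on DNA. Klf8, a repressor of Cdh1 in human cells, had the lowest p, with 1.44 ± 0.393 and 0.752 ± 0.257 FPKM, a change of 0.47 (adjusted p = 0.246 in limma).

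Factors that hold cells in the epithelial state mostly lay below the filter on low values. Of 11 repressors of the transition and epithelial splicing factors, only Klf4 was tested, at 1.20 ± 0.186 FPKM in the YKL-40-labelled libraries and 1.06 ± 0.128 FPKM in the controls, and Foxa1 came next at 0.574, 0.873 and 1.17 FPKM in the YKL-40-labelled libraries and 0.853, 0.744 and 0.911 FPKM in the controls. Of 20 genes of epithelial junctions and keratins, 3 were tested. The tight junction scaffold Tjp1 had 31.3 ± 1.31 and 33.2 ± 3.02 FPKM. F11r, an adhesion molecule that leukocytes and endothelial cells also express, had 6.93, 5.32 and 5.28 FPKM in the YKL-40-labelled libraries and 3.54, 4.20 and 4.95 FPKM in the controls, a change of 0.39 without overlap that did not pass (adjusted p = 0.242 in limma). Epcam, the epithelial adhesion molecule, was listed at 0 in all 6 libraries.

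The other cadherins were few. Of 17, only 4 were tested and 5 were at 0 in every library. Cdh19, a cadherin of Schwann cell precursors and melanocytes, was above Cdh2 in level, with 25.8, 22.3 and 25.8 FPKM in the YKL-40-labelled libraries and 35.6, 21.2 and 20.0 FPKM in the controls, and a change of -0.01. Cdh24, of the lowest p in the list, had 1.39 ± 0.420 and 1.85 ± 0.194 FPKM (adjusted p = 0.426 in limma). Of the 9 genes of catenins and the cadherin complex, which anchor cadherins to actin, 8 were tested and Ctnna2 was at 0 in every library. Ctnnb1, the gene of beta-catenin, had 513 ± 74.8 FPKM in the YKL-40-labelled libraries and 510 ± 33.99 FPKM in the controls, and Afdn, the junction adaptor afadin, 120 ± 8.12 and 119 ± 4.74 FPKM. Pkp4, a relative of p120 catenin, had 99.6, 120 and 106 FPKM in the YKL-40-labelled libraries and 126, 121 and 130 FPKM in the controls, a change of -0.22 without overlap (adjusted p = 0.310 in limma).

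Among the other intermediate filament genes, Lmna, the gene of the nuclear lamins A and C, had 241, 205 and 193 FPKM in the YKL-40-labelled libraries and 154, 150 and 168 FPKM in the controls. Its groups did not overlap, and the change of 0.43 did not pass (adjusted p = 0.121 in limma). Lmnb1, of the B-type lamins, had 46.5 ± 5.09 and 46.4 ± 2.03 FPKM.

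Of the fibronectin receptors and matrix partners, 14 of 14 were tested and 0 passed in limma, with a median change of 0.30. At an unadjusted p under 0.05, 3 were higher and 1 was lower, where 8.71% of all tested genes were higher and 9.24% lower. The 3 were the collagen genes Col1a1, Col1a2 and Col3a1, with changes of 1.92, 1.81 and 1.99, named after their values were seen, as were Ctnna2 and Epcam. These collagens are also on the list of fibroblast markers, whose sums stand beside Fn1 above, and the part of fibroblast RNA in them was not tested. Itgb1, the beta chain of the main fibronectin receptors, had 407 ± 13.4 FPKM in the YKL-40-labelled libraries and 430 ± 11.9 FPKM in the controls. The matrix protein gene Sparc had 87.7 ± 6.41 and 82.5 ± 22.0 FPKM. Itga4, a chain of a fibronectin and VCAM-1 receptor, was lower in every YKL-40-labelled library, with 10.6, 13.5 and 10.2 FPKM, against 15.8, 18.8 and 18.5 FPKM in the controls. Its change of -0.59 had an adjusted p of 0.0881 in limma and did not pass, though it did without the second YKL-40-labelled library (-0.71, adjusted p = 0.0426).

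Of the other mesenchymal genes 14 of 14 were tested. Cd44, a hyaluronan receptor, had 456 ± 42.0 FPKM in the YKL-40-labelled libraries and 416 ± 11.3 FPKM in the controls, and Lgals1, of the lectin galectin-1, 420 ± 85.4 and 426 ± 17.0 FPKM. S100a4, a calcium-binding protein of fibroblasts and leukocytes, had 43.2, 16.6 and 28.1 FPKM in the YKL-40-labelled libraries and 3.35, 4.86 and 11.5 FPKM in the controls. Its change of 2.05 did not pass (adjusted p = 0.0881 in limma). It did pass without the third control, at 2.49 with an adjusted p of 0.0439. The fibroblast and macrophage sums given above had the order of S100a4 within the controls, but not within the YKL-40-labelled group. There S100a4 was highest in the first library, where the macrophage sum was lowest, and the fibroblast sum was highest in the third. The part of these cells in the level of S100a4 was not tested.

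Among the inputs of transforming growth factor beta, a main inducer of the transition, 11 of 11 genes were tested and the median change was -0.05. At an unadjusted p under 0.05 in limma, 1 was higher and 2 were lower. Of all tested genes, 8.71% were higher and 9.24% lower. The groups of 1 higher and 3 lower genes did not overlap. The 3 lower were the ligand genes Tgfb2 and Tgfb3 and the receptor gene Tgfbr1, with changes of -0.54, -0.36 and -0.36, named after their values were seen. None of the 3 passed (adjusted p = 0.203, 0.288 and 0.189 in limma). Smad7, an inhibitor that the pathway itself induces, had 11.3 ± 0.705 FPKM in the YKL-40-labelled libraries and 6.43 ± 2.30 FPKM in the controls, a change of 0.77 without overlap (adjusted p = 0.149 in limma). The receptor Tgfbr2 had 63.1 ± 8.38 and 53.0 ± 0.803 FPKM, and the signal transducer Smad4 34.9 ± 3.81 and 36.1 ± 2.24 FPKM.

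Among the genes of melanocyte differentiation and of the invasive state, the most abundant were Sox10 and Mitf. Sox10, a neural crest factor, had 110 ± 6.58 FPKM in the YKL-40-labelled libraries and 113 ± 4.59 FPKM in the controls, and Mitf, the melanocyte master regulator, 81.8 ± 42.9 and 86.2 ± 10.2 FPKM. Rora, a nuclear receptor, had the lowest p of this list, with 17.2, 14.3 and 18.5 FPKM in the YKL-40-labelled libraries and 11.3, 10.7 and 12.3 FPKM in the controls, a change of 0.50 without overlap (adjusted p = 0.107 in limma). Of its 10 genes 6 were tested.

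The genes most like the 3 members of lowest p were taken by Pearson correlation of log2(FPKM + 1) over the 6 libraries. For Axl they were Fcsk (0.998), Dnaic1 (0.993) and Atp1b3 (0.990). Fcsk had 7.97, 10.0 and 10.6 FPKM in the YKL-40-labelled libraries and 8.02, 8.03 and 8.12 FPKM in the controls, so that, as for Axl, the second and the third YKL-40-labelled libraries stood above the other 4. For Cdh2 they were Ssna1 (0.987), Cnksr3 (0.986) and Ybey (0.984), and for Vim they were Unc13a (0.989), Dpf1 (0.984) and Dpep2 (0.984). With 6 points such values are common, and 23, 28 and 34 tested genes had an r above 0.95 with Axl, Cdh2 and Vim.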

How the data were processed

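RNA was taken from 6 whole tumours, and 2 µg per sample went into TruSeq RNA v2 libraries, per the labels' protocols. The deposited table holds 1 FPKM value per gene and library, made by the authors. The mouse build was mm10 and the tools HISAT2, StringTie, limma, DESeq2 and bcl2fastq 2.0, per the submitters' processing notes, which give them no roles. The sources used here do not give the gene annotation. Read totals are unknown, so no counting interval is given. Depth was only estimated, as the most common ratio among genes below 0.3 FPKM.

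Groups came from the titles. Genes whose mean over both groups reached 1 FPKM were tested on log2(FPKM + 1), which understates changes of low genes, with limma 3.58.1 in R 4.3.3 (trended variances, two-sided, Benjamini-Hochberg over all tested genes, threshold 0.05). The 2 ratios and the genes below the filter were tested by exact permutation. The procedure was tested on simulated data. The alternatives tried were 2 other pseudocounts (0.1 and 0.01), dropping the filter or raising it to 5 FPKM, 2 scalings, no variance trend, array quality weights, a replicate block and leaving out each library.

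The members and lists were chosen with earlier results of these data known. From each list the text names the 2 most abundant genes and the tested gene of lowest p, and with each of the 3 members of lowest p the 3 most correlated genes. Positions and promoters are from RefSeq, GRCm38.p6, and exon overlaps from GENCODE release M21. All 10 members matched by symbol.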

Additional observations from a re-analysis of the deposited data

How the results depend on the processing

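The count of members that passed was 0 in each alternative except array quality weights, where it was 1 (Axl). Over all tested genes the 49 calls became 1 without a filter, 1111 with array quality weights, and 0 to 238 with 1 library left out, 0 of them without control 2, where 1345 had an unadjusted p under 0.05 in limma. Among the other transition genes, the 0 became 8 with array quality weights and 0 to 4 with 1 library left out. The 4 were Col1a1, Col3a1, S100a4 and Tgfbi, without control 3. The difference in the Zeb2 to Zeb1 ratio ran from -0.28 to 0.23 with 1 library left out, and that of Cdh2 to Cdh1 from -0.20 to -0.04. With 1 library left out the change ran from -0.086 to 1.08 for Fn1, from -0.0016 to 0.25 for Snai1, from -0.029 to 0.080 for Snai2 and from -0.25 to 0.029 for Zeb1, so these 4 turned sign. The cause was not tested. The changes of Vim, Axl, Cdh2 and Zeb2 kept their sign in all 15 alternatives. A filter at 5 FPKM removed the low genes. Same-numbered libraries of the groups did not deviate together (correlations from -0.19 to 0.0017), and 0 of 6 libraries was closest to its own number. With the replicate block 120 genes passed, with 0 members and 1 other transition gene, Tgm2, among them. Unknown depth limits what can be said of Twist1 and Cdh1.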

Other observations

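Zeb2 ran from 73.3 to 121 FPKM in the YKL-40-labelled libraries and from 79.3 to 143 FPKM in the controls, and Yap1, the effector of the Hippo pathway, took nearly the reverse order. Yap1 had 103, 49.5 and 131 FPKM in the YKL-40-labelled libraries and 41.5, 103 and 45.4 FPKM in the controls. The library with the highest Zeb2, control 1 with 143 FPKM, had the lowest Yap1, and the library with the lowest Zeb2, YKL-40-labelled library 3 with 73.3 FPKM, had the highest. This pair was chosen after its values were seen, and neither gene differed between the groups in limma (adjusted p = 0.710 and 0.519).

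Among genes outside the comparisons of members, Fn1 was most correlated with Hic1 (r = 0.997), Prss23 (0.997) and Lrrc15 (0.993) over the 6 libraries. An r above 0.95 with Fn1 was reached by 31 tested genes. Lrrc15, a marker of activated fibroblasts, had 0.730, 1.99 and 1.97 FPKM in the YKL-40-labelled libraries and 0, 0.788 and 2.73 FPKM in the controls, lowest in control 1 and highest in control 3, as Fn1 was. These genes were also chosen after their values were seen. Des, the muscle intermediate filament gene, had 3.86, 3.63 and 1.90 FPKM in the YKL-40-labelled libraries and 7.21, 4.58 and 23.8 FPKM in the controls, a change of -1.37 that did not pass (adjusted p = 0.232 in limma). Summed skeletal muscle markers were 7.62, 26.1 and 4.44 FPKM in the YKL-40-labelled libraries and 72.4, 38.0 and 160 FPKM in the controls, and their part in the level of Des was not tested.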
